A study of Mus musculus with 2 samples.

Results

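Translation initiation, elongation and release factor genes were compared between haematopoietic stem cells (HSC) called primitive and HSC called maturing. Members were the genes whose annotated symbol begins with Eif1 to Eif6, Eef1 or Eef2, together with Etf1 and Gspt1, leaving out the Eif2ak kinases and symbols that end in y. The rule gave 49 of 12393 genes on the array, read by 116 probe sets with a single gene symbol. Both populations were sorted by flow cytometry from mouse bone marrow after a short culture and were otherwise untreated, and the labels used here do not state the sorted surface phenotypes, the strain or the age. Each was measured on 1 Affymetrix array. The cDNA had been primed on poly(A), PCR-amplified, size-fractionated and cloned in a phage vector, so an array reads the content of a cloned cDNA library. In such bulk samples fewer cells of a type and less RNA per cell cannot be told apart. With 1 array per population no test was possible, no value below has an error between samples, and the number of arrays limits the precision.

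Initiation factors bring the initiator tRNA, the messenger RNA and the small ribosomal subunit together, and the large subunit joins once the start codon has been found. Elongation factors then deliver charged tRNAs and move the ribosome along the codons, and release factors free the finished protein at the stop codon. Haematopoietic stem cells are known for low rates of protein synthesis, and cells in general adjust that rate through the eIF2 complex and the cap-binding complex eIF4F.

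Intensities are MAS5 signals in arbitrary units after both arrays had been set to the same 2% trimmed mean. A value under 441.0, the pooled median of all non-control probe sets, was set to that floor, and where 1 array was at the floor the ratio gives a bound only. The ratio is log2 of primitive over maturing, taken from the gene's brightest probe set (highest mean of both arrays). In all, 46 of the 49 members were above the floor on at least 1 array and 44 on both. Eif2d, Eef1aknmt and Eef2kmt were at the floor on both arrays and were not measured. A further 6 probe sets annotated to several genes (Eif3j1, Eif4a3, Eef1g or Eif1a among them) were not used.

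Markers of stem and progenitor cells were above the floor for 9 of 11 genes on the primitive array and 10 of 11 on the maturing array. Tek and Flt3 were at the floor on the primitive array and Mecom on the maturing array. At least 2-fold higher in primitive HSC was 1 of the 11, against 15.6% of all measured genes. It was Procr (11571 in primitive against 1895 in maturing HSC, log2 ratio 2.61). At least 2-fold lower were 4 (Flt3 and Tek as bounds, Cd48 at -1.41 and Hlf at -1.25), against 17.6%. The summed signal of 6 neutrophil and monocyte markers was 86764 on the primitive and 46123 on the maturing array. S100a8 carried the most of it (46743 against 19527), while Ctsg was lower in primitive HSC (1868 against 3993) and Mpo was at the floor in primitive HSC and read 2587 in maturing HSC. Among T cell markers Cd3d read 8673 on the primitive array and was at the floor on the maturing array, while Cd3e and Cd3g were at the floor on both. In the B cell, erythroid, megakaryocyte and macrophage lists, Klf1 (1.89), Gp9 (at least 4.13-fold) and Cd68 (1.28) were at least 2-fold higher in primitive HSC. Cd79b (-1.01) was at least 2-fold lower. The proliferation genes Mki67 and Top2a were lower on the primitive array (log2 ratios of -2.03 and -2.19), and Pcna stood at -0.05. The part of these differences in the values of the translation factors was not tested.

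Most translation factor genes differed by less than 2-fold, and those that differed more were mostly lower in primitive HSC. Of 46 measured members, 20 were higher and 26 lower in primitive HSC (43.5% and 56.5%), against 52.7% and 47.3% of all 8852 measured genes. At least 2-fold higher were 6 members (13%), against 15.6% of all measured genes, and at least 2-fold lower were 12 (26.1%), against 17.6%. At 4-fold the counts were 2 higher (4.35%, against 3.45% of all measured genes) and 4 lower (8.7%, against 4.69%). The 2 at least 4-fold higher were Eif5b and Eif1b, and the 4 at least 4-fold lower were Eif1a, Gspt1, Etf1 and Eif4e. The median log2 ratio of the members was -0.23, with quartiles at -1.07 and 0.46, and the median of all measured genes was 0.07.

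**Figure D1:**
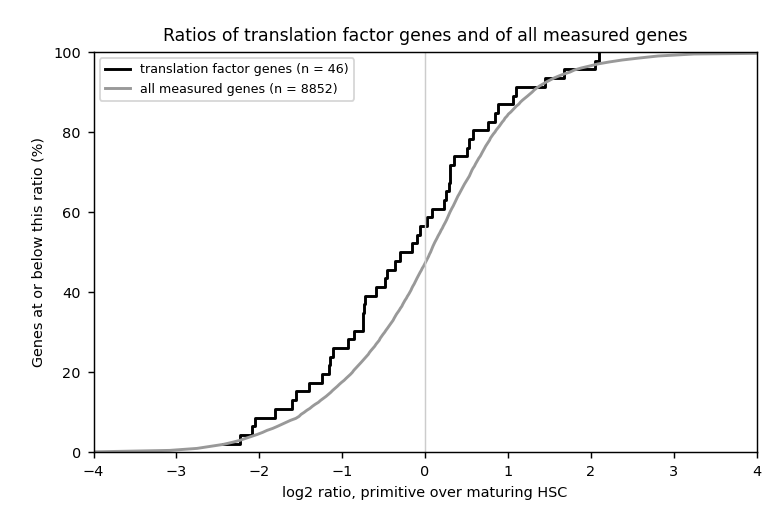
Cumulative share of genes (vertical axis, percent) at or below each log2 ratio of primitive over maturing HSC (horizontal axis) for the 46 measured translation factor genes (black steps) and all 8852 measured genes (grey line). The black steps lie above the grey line over most of the range, with medians of -0.23 and 0.07, and both meet near 4-fold higher.

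The hybridisation controls, which are added to each sample at hybridisation, gave more signal on the primitive array, with a median log2 ratio of 0.97. Scaling to them instead of to the trimmed mean moved the median of all measured genes from 0.07 to -0.74 and that of the members from -0.23 to -1.13. That scaling lowers nearly every log2 ratio by about the same amount, so a higher member with a small ratio turns negative under it by construction and lower ones stay lower. After it 15 of the 20 higher members were negative, and Eif1b, Eif1ax, Eif5b, Eef1d and Eef2k were not. Every direction given below for those 15 holds at most relative to the average gene of each array. After quantile normalization 16 of the 20 stayed higher (not Eef1a1, Eif3f, Eif3h and Eif4g2) and after lowess 15 (not Eif5a either). Of the 26 lower members, Eif4ebp1 turned positive under both and the others kept their sign, except that Eif2b4 was not measured after lowess.

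**Figure D2:**
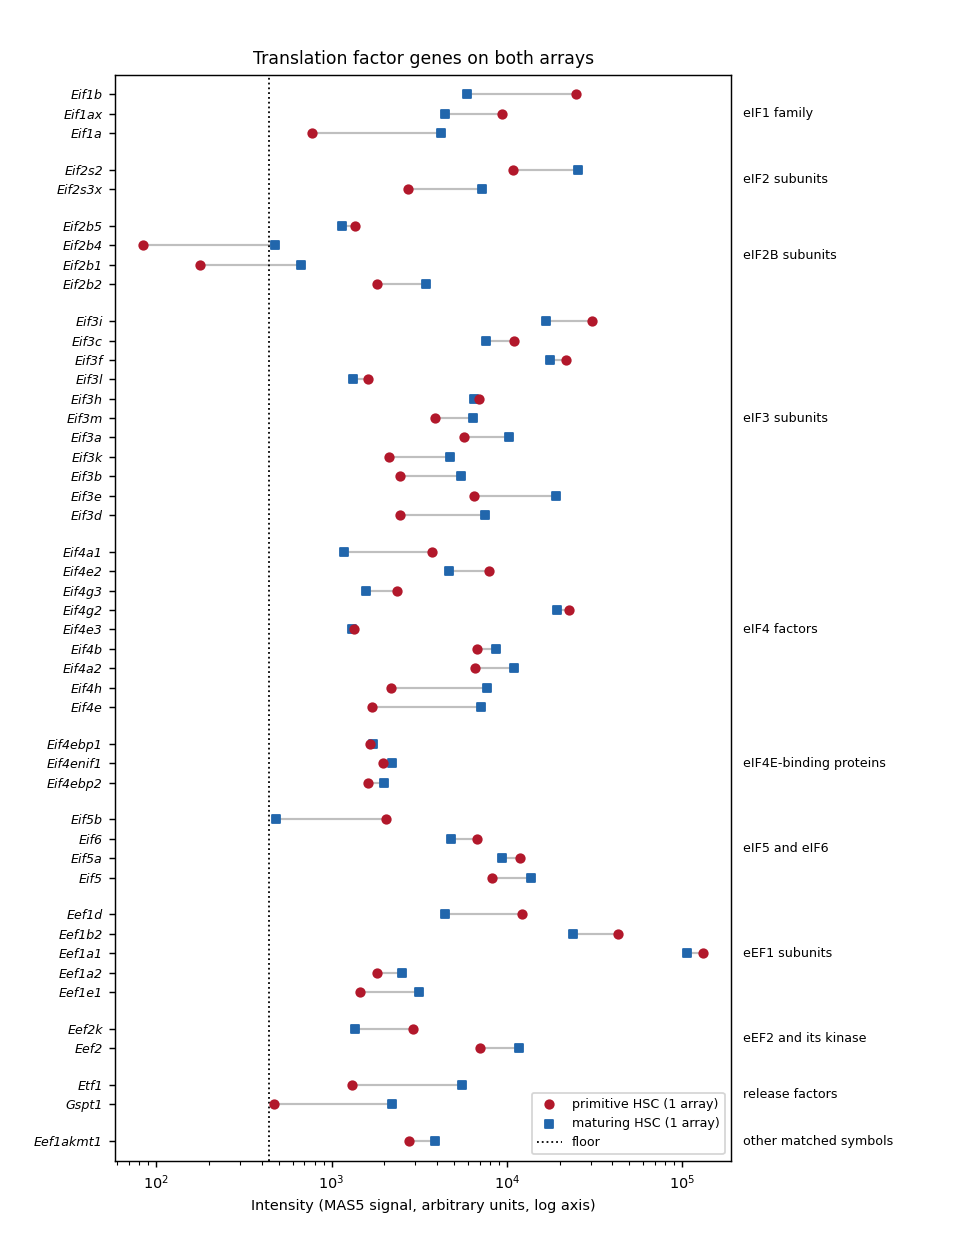
Intensity (log axis, MAS5 signal in arbitrary units) of the 46 measured members on the primitive array (red circles) and the maturing array (blue squares), grouped by factor class, with the floor as a dotted line. Red lies right of blue for Eif1b and Eif1ax and far left of it for Eif1a, Etf1, Gspt1, Eif4e and Eif4h.

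Both release factor genes were more than 4-fold lower in primitive HSC. Etf1 encodes eRF1, which reads the stop codon, and gave 1303 in primitive against 5547 in maturing HSC, a log2 ratio of -2.09. Gspt1 encodes eRF3, the GTPase that works with eRF1, and gave 471 in primitive against 2206 in maturing HSC, a log2 ratio of -2.23. Its primitive value was close to the floor, and with the floor at percentile 75 the ratio was -1.10. All measured probe sets of both genes were lower in primitive HSC. For Gspt1 the second measured probe set was at least 5.03-fold lower. For Etf1 the other 3 lay at -0.24, -0.32 and -1.10, so its 4-fold value rests on 1 of 4 measured probe sets.

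The eIF2 complex, which carries the initiator tRNA to the small ribosomal subunit, was lower in primitive HSC for both subunits measured. Eif2s2, the beta subunit, gave 10807 in primitive against 25582 in maturing HSC (log2 ratio -1.24), and its 6 probe sets ran from -2.72 to -0.08, with a bound among them. Eif2s3x, the X-linked gene of the GTP-binding gamma subunit, gave 2744 in primitive against 7223 in maturing HSC (-1.40), with another probe set at -1.69 and the last at least 2.29-fold lower. Every measured probe set of these genes was thus lower in primitive HSC, by widely different amounts for Eif2s2. The alpha subunit was not analysed here.

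The subunits of eIF2B, the exchange factor that reloads eIF2 with GTP, showed no difference of 2-fold above the floor. Eif2b2 gave 1810 in primitive against 3452 in maturing HSC (log2 ratio -0.93), with 3 probe sets all lower. Eif2b5, the catalytic epsilon subunit, gave 1358 in primitive against 1140 in maturing HSC (0.25). Eif2b1 and Eif2b4 were at the floor on the primitive array and read 666 and 473 on the maturing array, so they were at least 1.51-fold and 1.07-fold lower in primitive HSC. These 2 genes were dim. With the floor at percentile 25 Eif2b1 stood at -1.90 and Eif2b4 at -1.75, still a bound, and the class median was -1.34 in place of -0.35.

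The genes of the eIF1 family, whose products keep the scanning ribosome open until the start codon is found, were far apart. Eif1b, a close relative of eIF1, gave 24632 in primitive against 5948 in maturing HSC, a log2 ratio of 2.05 from its 1 probe set. It was under 4-fold after quantile normalization (1.67), lowess (1.62) and scaling to the hybridisation controls (1.08). Eif1ax, the X-linked gene for eIF1A, gave 9330 in primitive against 4457 in maturing HSC (1.07). Eif1a, a second mouse gene for eIF1A, gave 771 in primitive against 4191 in maturing HSC (-2.44), with its other probe set at -0.94. The eIF1A genes thus had opposite directions, also after quantile normalization and lowess, where Eif1ax was under 2-fold (0.93 and 0.85). Scaled to the hybridisation controls Eif1ax stood at 0.092, which leaves no difference in primitive HSC. Its value came from 1 probe set, the other being at the floor on both arrays. Related copies can share probes in this family, so the split of signal between its genes is uncertain.

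The subunits of eIF3, the large scaffold that holds the small ribosomal subunit during initiation, did not move as a block. Of 11 measured subunits 5 were higher and 6 lower in primitive HSC, against 52.7% and 47.3% of all measured genes. Their log2 ratios ran from -1.61 to 0.87 around a median of -0.72. The median is the value of Eif3m, whose probe sets disagree. It was -0.0083 without probe sets ending in _s_at, _x_at, _a_at or _f_at. Of these suffixes, _x_at and _s_at mark less specific probe sets, which can bind related transcripts. That setting leaves out Eif3f, Eif3k and Eif3m and reads Eif3e from a dim probe set (-0.10, a bound). The part of the changed set of genes in this shift was not tested. At least 2-fold lower were 4 of the 11, against 17.6% of all measured genes, and at least 2-fold higher 0, against 15.6%. Eif3d, a cap-binding subunit, gave 2454 in primitive against 7487 in maturing HSC (-1.61). Eif3e gave 6476 in primitive against 19117 in maturing HSC (-1.56), with others at -1.20 and -0.18 and the last at least 1.07-fold lower. Eif3b, a scaffold subunit with an RNA-binding domain, gave 2473 in primitive against 5509 in maturing HSC (-1.16). Eif3k, a peripheral subunit, gave 2129 in primitive against 4724 in maturing HSC (-1.15).

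For 3 further eIF3 subunits the probe sets disagreed. Eif3a, the largest scaffold subunit, gave 5659 in primitive against 10246 in maturing HSC (-0.86), but 1 of its 4 probe sets stood at 1.76. Eif3c, which docks eIF1 and eIF5, gave 11021 in primitive against 7613 in maturing HSC (0.53), while its 2 probe sets of the x_at type stood at -1.51 and -1.15. Eif3m stood at -0.72 with its second probe set at 0.95. No direction can be read for these 3 genes. Eif3i, chosen after its values had been seen, gave 30674 in primitive against 16737 in maturing HSC (0.87), with a second probe set at 1.01. It stood at 0.20 after quantile normalization and 0.25 after lowess. Eif3f, Eif3h and Eif3l lay between 0.09 and 0.30, and Eif3f and Eif3h also turned negative after quantile normalization and lowess.

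**Figure D3:**
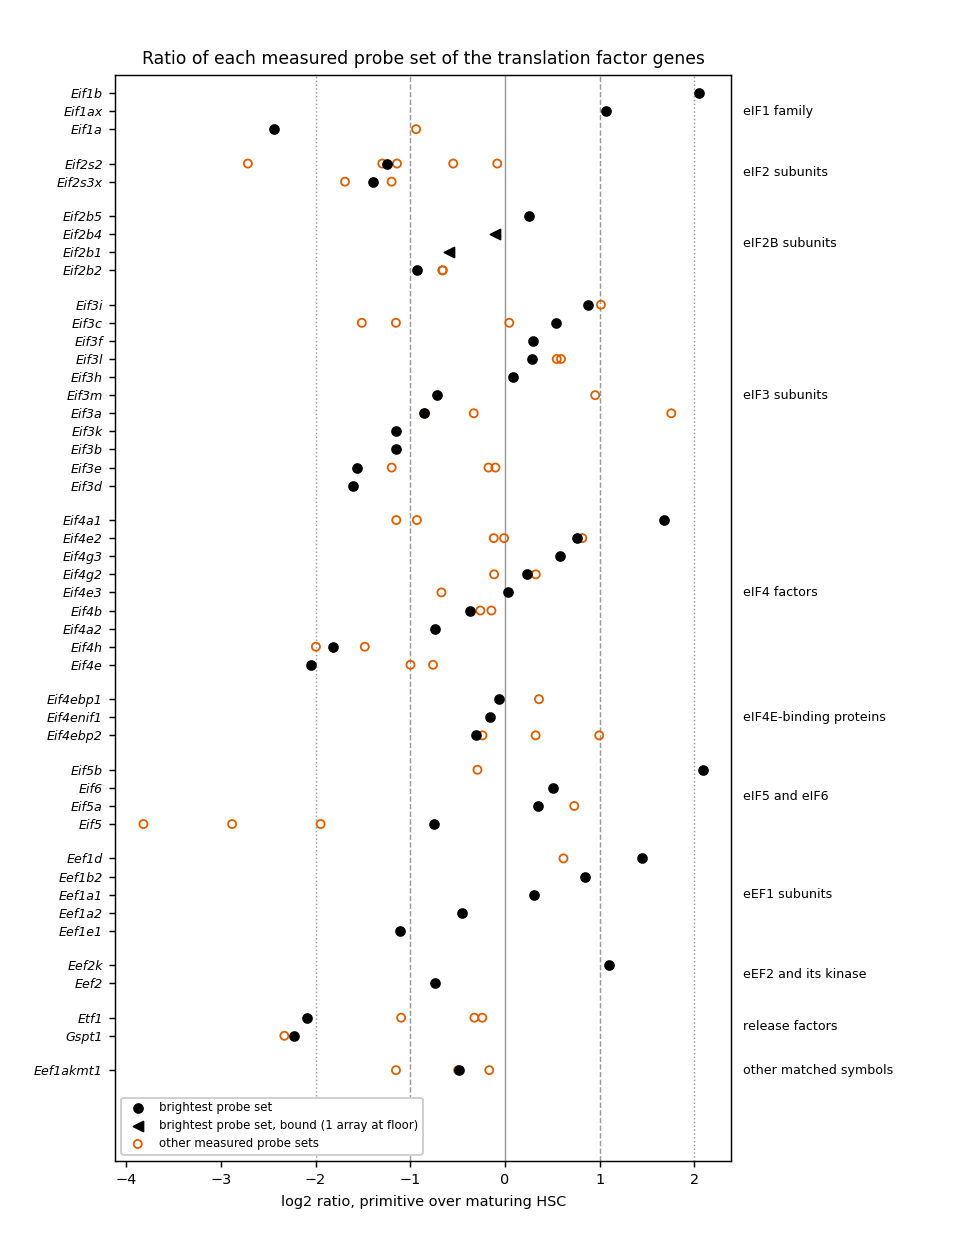
Log2 ratio of primitive over maturing HSC (horizontal axis) for every measured probe set of the 46 members, with the brightest probe set of each gene filled and the others open. Dashed and dotted lines mark 2-fold and 4-fold. All open points of Eif2s2, Eif2s3x, Eif4h, Eif4e, Etf1 and Eif5 lie left of 0, while those of Eif3a, Eif3c and Eif4a1 lie on both sides of it or opposite the filled point.

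Among the eIF4 factors, which bind the cap of the messenger RNA and unwind its leader, the cap-binding protein gene and a helicase cofactor gene were the lowest in primitive HSC. Eif4e, the cap-binding subunit of eIF4F, gave 1711 in primitive against 7085 in maturing HSC (log2 ratio -2.05), with its other probe sets at -1.0 and -0.76. Eif4h, which stimulates the helicase eIF4A, gave 2180 in primitive against 7655 in maturing HSC (-1.81), and its 3 probe sets lay between -2.0 and -1.48. All 3 probe sets of Eif4h are of the less specific kinds. Eif4e2, a relative that competes for the cap and represses translation, stood at 0.76, with its other probe sets between -0.12 and 0.82. Eif4e3 stood at 0.03, and its second probe set was at least 1.59-fold lower in primitive HSC. The cap-binding relatives were thus under 2-fold on their brightest probe sets.

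The helicase gene Eif4a1 had no settled direction. Its brightest probe set gave 3743 in primitive against 1171 in maturing HSC (1.68), but the other 2 stood at -0.93 and -1.15. Scaling to the hybridisation controls made a different probe set the brightest and turned the value to -2.12. Its paralog Eif4a2 had 1 probe set, at -0.74. Over the whole class 5 of 9 genes were higher and 4 lower, close to the 52.7% and 47.3% of all measured genes, with a median of 0.03. The scaffold genes Eif4g2 (0.23) and Eif4g3 (0.58) and the cofactor gene Eif4b (-0.37) were under 2-fold, and Eif4g2 turned to -0.44 after quantile normalization and -0.37 after lowess.

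The genes for eIF4E-binding proteins, which hold eIF4E away from the scaffold, differed little between the arrays on their brightest probe sets, though scaled to the hybridisation controls all 3 were at least 2-fold lower in primitive HSC (-1.04 to -1.28). Eif4ebp1, a target of the mTORC1 kinase, gave 1651 in primitive against 1724 in maturing HSC (log2 ratio -0.06). Eif4enif1, which carries eIF4E into the nucleus, gave 1975 in primitive against 2205 in maturing HSC (-0.16). Eif4ebp2 gave 1612 in primitive against 1993 in maturing HSC (-0.31), but its 4 measured probe sets ran from -0.31 to 0.99. Of the cap-binding protein and its 3 binding proteins, Eif4e alone was past 2-fold on its brightest probe set.

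Eif5 had lower values in primitive HSC on each of 4 probe sets. Its product triggers GTP hydrolysis by eIF2 at the start codon. The brightest probe set gave 8200 in primitive against 13756 in maturing HSC, a log2 ratio of -0.75, which is the smallest difference of the 4. The others were at -1.95, at -2.88 and at least 14.1-fold lower, so the median over probe sets was -2.42. Eif5b, the GTPase that joins the ribosomal subunits, gave 2048 in primitive against 480 in maturing HSC (2.09), but a second probe set was at least 1.22-fold lower in primitive HSC and the maturing value was near the floor. Eif5a, the factor modified with hypusine, gave 11918 in primitive against 9370 in maturing HSC (0.35), with its second probe set at 0.73, and it turned to -0.04 after lowess. Eif6, which keeps the large subunit from joining too early, gave 6786 in primitive against 4788 in maturing HSC (0.50).

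Of the genes named with the elongation factor eEF1, Eef1d alone stayed higher in primitive HSC under every scaling, and Eef1a2 and Eef1e1 stayed lower. Eef1d and Eef1b2 encode subunits that reload eEF1A with GTP. Eef1d gave 12120 in primitive against 4431 in maturing HSC (log2 ratio 1.45), with its second measured probe set at 0.62. Eef1b2 gave 42915 in primitive against 23836 in maturing HSC (0.85), which was 0.11 after quantile normalization, 0.12 after lowess and -0.13 when scaled to the hybridisation controls. Eef1a1, which brings charged tRNAs to the ribosome, gave 131534 in primitive against 106671 in maturing HSC (0.30). It turned to -0.55 after quantile normalization and -0.85 after lowess. Eef1a2, the form known from muscle and neurons, gave 1825 in primitive against 2507 in maturing HSC (-0.46). Eef1e1, a component of the multi-tRNA synthetase complex, gave 1461 in primitive against 3156 in maturing HSC (-1.11).

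Eef2, which moves the ribosome by a codon, gave 7044 in primitive against 11797 in maturing HSC (log2 ratio -0.74). Its inhibitor gene, the kinase Eef2k, gave 2899 in primitive against 1359 in maturing HSC (1.09). Each rests on 1 probe set, and scaled to the hybridisation controls Eef2k stood at 0.12. Eef1akmt1, a methyltransferase of eEF1A, was lower by all 4 probe sets, with a ratio of -0.48 from the brightest.

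The repeat measure in these data is the agreement of probe sets, which is technical. Of 100 measured member probe sets 33 were higher and 67 lower in primitive HSC, against 49.3% higher and 50.7% lower among all 12964 measured probe sets with a single symbol. In that count, genes with many probe sets weigh more. Of 26 members with at least 2 measured probe sets, 16 (61.5%) had all of them in the same direction, against 55.6% of 2763 such genes on the array. With bounds counted by their direction, all 8 such members at least 2-fold lower agreed (Eif1a, Eif2s2, Eif2s3x, Eif3e, Eif4e, Eif4h, Etf1 and Gspt1). Of the 3 at least 2-fold higher, Eef1d agreed and Eif4a1 and Eif5b did not. Among all genes at least 2-fold apart in either direction 64.2% agreed. The brightness of a member had little relation to its ratio (Spearman's rho of 0.12 across 46 genes, which share the 2 arrays and are not independent replicates).

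**Figure D4:**
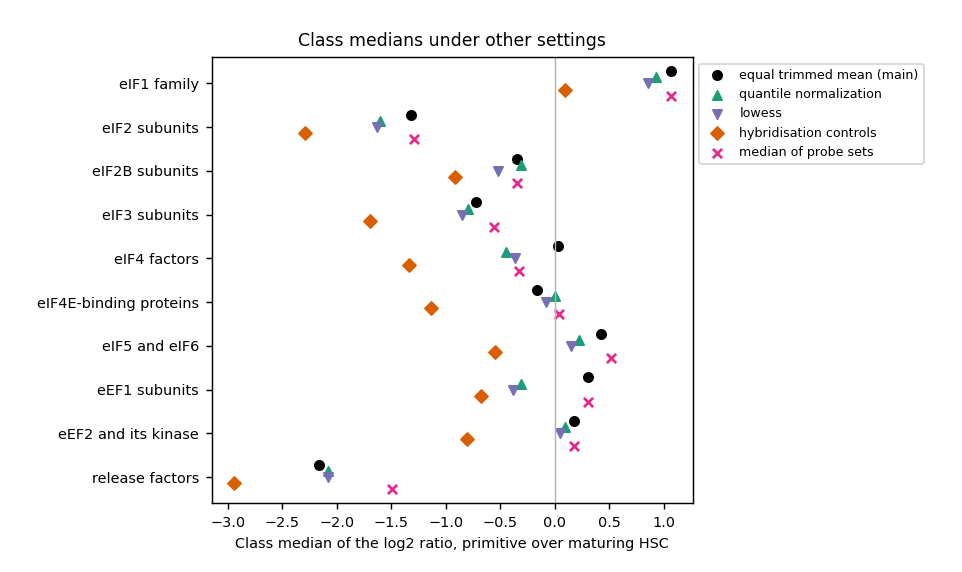
Class median of the log2 ratio of primitive over maturing HSC (horizontal axis) for 10 factor classes under the main setting (black circles), 3 other scalings and the median over probe sets (crosses). The release factors and eIF2 subunits lie below -1 under every setting drawn, and the eIF1 family lies above 0, while the eEF1 subunits change sign with quantile normalization, lowess and the hybridisation controls.

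Ordered by class median, the eIF1 family stood highest at 1.07 (3 genes), followed by eIF5 and eIF6 at 0.43, the eEF1 subunits at 0.30, eEF2 and its kinase at 0.17 and the eIF4 factors at 0.03. Below 0 were the eIF4E-binding proteins at -0.16, the eIF2B subunits at -0.35, the eIF3 subunits at -0.72, the eIF2 subunits at -1.32 and the release factors at -2.16. Classes of 2 to 5 genes are given by their members above. Within the eIF1 family the range of -2.44 to 2.05 was wider than the distance between any 2 class medians. The classes of eIF5 and eIF6 (-0.55), eEF1 (-0.67), eEF2 and its kinase (-0.80) and eIF4 (-1.34) had negative medians when scaled to the hybridisation controls. Those of eEF1 and eIF4 were also negative after quantile normalization (-0.30 and -0.44) and lowess (-0.38 and -0.37). Of the initiation factors as a whole, without the eIF4E-binding proteins, 16 were higher and 17 lower. Of the elongation factors (eEF1 subunits and Eef2) 3 were higher and 3 lower. Of all measured genes 52.7% were higher and 47.3% lower. Eef1e1, which is in the eEF1 class by its name only, is among the 3 lower and also enters the eEF1 median.

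Sequences at the gene starts, from RefSeq on GRCm38.p6, were available for 38 of the 49 members. Many translation genes are known to begin their transcripts with a C and a run of pyrimidines, the terminal oligopyrimidine (TOP) tract through which mTORC1 controls their translation. A C followed by at least 4 bases that are each C or T, on the strand of the gene and within 5 bases of an annotated start, was found in 8 of 38 members (21.1%), against 23.7% of 7146 measured genes with a start and 48.8% of 43 cytosolic ribosomal protein genes. Within 20 bases the shares were 47.4%, 55.5% and 81.4%. Annotated starts are inexact, and short pyrimidine runs are common. Printed here are the members with the longest tracts, Eif2s3x (chrX:94212632-94212661, minus strand) and Eif3f (chr7:108934405-108934434, plus strand), and Eef1a1 (chr9:78481705-78481734, minus strand), a gene known for its TOP transcript. Capitals mark the tract as counted from the matching C closest to the annotated start. In each printed gene the bases directly before it are pyrimidines too, so the whole run is longer. For Eef1a1 the marked run is the one at the annotated start. Whether its known TOP transcript begins there was not tested.
Eif2s3x: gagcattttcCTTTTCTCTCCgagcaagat
Eif3f: tctaggctctCTCTCTTTCTCggcaagatg
Eef1a1: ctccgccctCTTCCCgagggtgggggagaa
Eif2s3x and Eif3f, with tracts of 11 bases counted from that C, had log2 ratios of -1.40 and 0.30. The 8 genes with a tract within 5 bases had a median of 0.05 and the 27 measured genes without one -0.46. Within 20 bases the order was the other way round, at -0.46 for 17 genes with a tract and -0.20 for 18 without.

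The E-box CACGTG, which reads the same on both strands and is bound by MYC and related factors, was looked for in the 250 bases before each start after the values had been seen. It was found in 10 of 38 members (26.3%), against 9.66% of measured genes and 9.30% of cytosolic ribosomal protein genes. Counted per start rather than per gene it was in 12 of 52 member windows (23.1%) and 7.97% of all windows of measured genes. Printed here are the members at least 2-fold apart that hold it, first those lower in primitive HSC and then those higher on their brightest probe set, with the E-box in capitals. Eif4a1 is among the second, although its other probe sets were lower. The positions are chr3:138527028-138527057 and chr3:138527192-138527221 (plus strand) for Eif4e, chr5:134639488-134639517 (minus) for Eif4h, chr7:28981915-28981944 (minus) for Eif3k, chr9:120492570-120492599 (plus) for Eif1b, chr11:69672595-69672624 (minus) for Eif4a1 and chr7:120842788-120842817 (plus) for Eef2k.
Eif4e, first: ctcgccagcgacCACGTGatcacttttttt
Eif4e, second: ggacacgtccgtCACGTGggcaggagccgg
Eif4h: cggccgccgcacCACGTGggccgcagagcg
Eif3k: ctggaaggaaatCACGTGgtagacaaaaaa
Eif1b: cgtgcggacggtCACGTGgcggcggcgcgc
Eif4a1: cgatcgcctccgCACGTGtaaaggtgctgg
Eef2k: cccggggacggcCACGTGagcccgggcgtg
The E-box stood before genes of both directions. The 9 measured members that hold it ran from -2.05 (Eif4e) to 2.05 (Eif1b), with 5 higher (Eif4a1 among them) and 4 lower. Myc itself was at the floor on both arrays, with 377 in primitive and 375 in maturing HSC. A match is a description of these letters, not a binding site or a cause.

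Other genes regulate or assist the factors. Those that bind messenger RNA or recycle ribosomes were mostly lower in primitive HSC on their brightest probe sets. The list of mTORC1 and MAPK inputs held 5 genes higher and 5 lower. At least 2-fold higher were 4 of its 10 (Mtor, Rheb, Tsc1 and Tsc2), against 15.6% of all measured genes. At least 2-fold lower were 2 (Larp1 and Pdcd4), against 17.6%. Among 13 measured binding partners and recycling factors 3 were higher and 10 lower in primitive HSC (median log2 ratio -0.67). Of all measured genes 47.3% were lower. In that list 4 were at least 2-fold lower, against 17.6% of all measured genes, and 0 at least 2-fold higher, against 15.6%. Hbs1l, a relative of eRF3 that rescues stalled ribosomes, was at the floor in primitive and gave 2139 in maturing HSC. It was at least 4.85-fold lower in primitive HSC, with its other measured probe set at 0.14. Probe sets also went both ways for Abcf1 (-1.11 to 1.44) and Denr (-0.52 and 1.01) among the lower genes. The same held for Pabpc1 (-0.77 and 0.03) and Ddx3x (-0.14 to 0.14) among the higher ones.

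Of 10 measured mTORC1 and MAPK inputs 5 were higher and 5 lower in primitive HSC, close to the 52.7% and 47.3% of all measured genes. Larp1, which binds TOP transcripts, was at the floor in primitive and gave 4088 in maturing HSC, at least 9.27-fold lower in primitive HSC. Pdcd4, an inhibitor of the helicase eIF4A, gave 732 in primitive against 5913 in maturing HSC (log2 ratio -3.01). At least 2-fold higher were 4 of the 10, against 15.6% of all measured genes. Named after their values were seen, they held both activators and inhibitors of mTORC1. They were Rheb (1.71), Mtor (1.31, with its other probe set at -0.36), and Tsc2 and Tsc1, which were at least 3.19-fold and 2.34-fold higher. By the median of its probe sets Tsc1 stood at 0.61.

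In the eIF2 alpha kinase and stress list 3 of 8 measured genes were higher and 5 lower in primitive HSC, against 52.7% and 47.3% of all measured genes. Ddit3, a transcription factor induced when eIF2 is phosphorylated, gave 9243 in primitive against 1386 in maturing HSC (log2 ratio 2.74, from 1 probe set). The activating factor gene Atf4, chosen after its values had been seen, stood at 0.50 with 3 probe sets all higher, and was negative when scaled to the hybridisation controls. Ppp1r15b, a phosphatase subunit that reverses eIF2 phosphorylation, and the kinase gene Eif2ak3 were both also chosen after their values had been seen. They were the 2 of 8 at least 2-fold lower, against 17.6% of all measured genes. At least 2-fold higher was 1 of 8 (Ddit3), against 15.6%. Ppp1r15b was at the floor in primitive and gave 1123 in maturing HSC, at least 2.55-fold lower, and Eif2ak3 gave 503 in primitive against 1102 in maturing HSC (-1.13). Ppp1r15a, the other phosphatase subunit gene of the list, went the other way. It gave 3551 in primitive against 2198 in maturing HSC (0.69), and -0.28 when scaled to the hybridisation controls. Of 4 measured mitochondrial translation factors 1 was higher and 3 were lower, against 52.7% and 47.3% of all measured genes. The mitochondrial elongation factor gene Tufm and the recycling factor gene Mrrf were at the floor in primitive HSC and at least 2.24-fold and 1.82-fold lower there, with the other probe set of Tufm at 0.40.

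**Figure D5:**
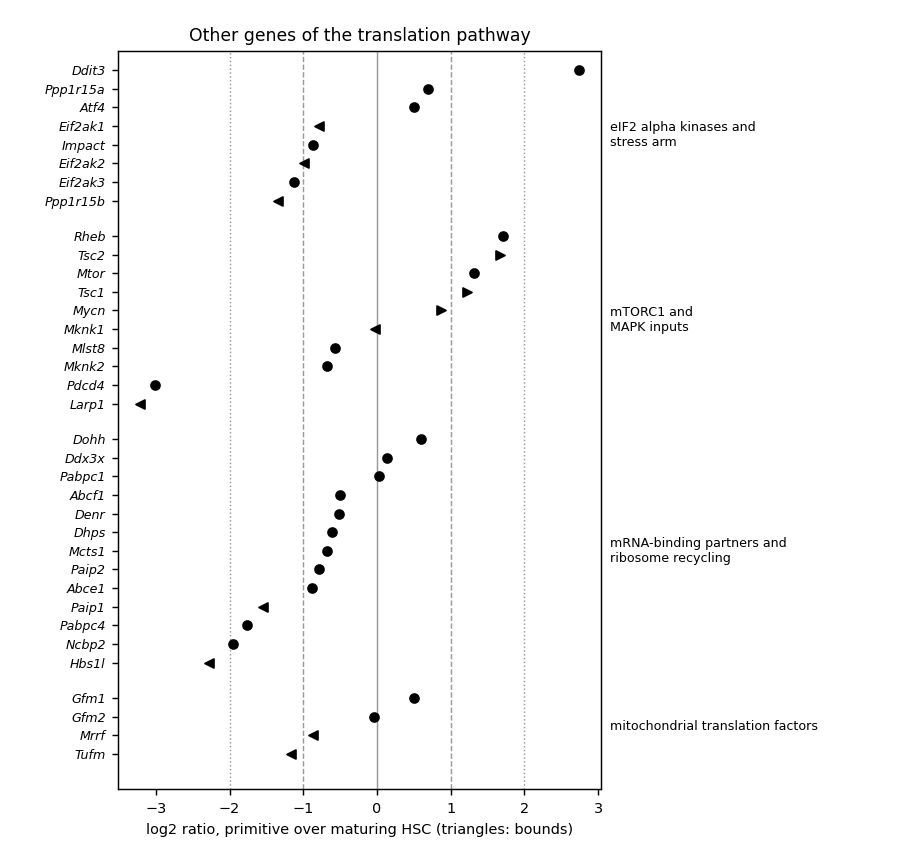
Log2 ratio of primitive over maturing HSC (horizontal axis) for the measured genes of 4 further lists, with triangles for genes at the floor on 1 array, whose value is a bound. Dashed and dotted lines mark 2-fold and 4-fold. Ddit3 lies farthest right at 2.74, and Larp1 and Pdcd4 farthest left.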

How the data were processed

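The authors deposited linear signal intensities, which per the submitters' processing notes came from MAS5 (version not stated there). The 2% trimmed means were 1000.6 (primitive) and 1000.4 (maturing), so the authors had scaled the arrays alike. The table held 22690 probe sets, 64 of them controls, and 20380 had a single symbol in the platform annotation. All 49 members matched RefSeq through Entrez identifiers.

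Both arrays were rescaled to equal trimmed means, floored at 441.0, and reduced to the probe set of highest mean intensity per gene. On simulated arrays, made from the maturing values with very little noise, the steps returned the folds put in for genes above the floor on both arrays. All probe sets of a changed gene were given the same fold there. That checks the code and gives no measure of the accuracy of the ratios above. Named were all measured members of classes of up to 6, in larger classes those at least 2-fold apart, members whose probe sets disagreed by over 1 (log2) and in direction, and in other lists those at least 4-fold apart or otherwise the 2 largest. Members, classes and lists were chosen with earlier results of these data known. The E-box search and the window of 20 bases were added after the values were seen. Promoter sequences are RefSeq's, GRCm38.p6. Protein sequences were not used here. Tried as alternatives were the values as deposited, 3 other scalings, 2 other floors and the median of probe sets. Also tried were leaving out probe sets ending in _s_at, _x_at, _a_at or _f_at, and requiring both arrays above the floor. Figures were drawn with matplotlib 3.10.9 and lowess run with statsmodels 0.14.6, in Python 3.11.15 with scipy 1.17.1, pandas 2.3.3 and numpy 2.4.6.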

Additional observations from a re-analysis of the deposited data

How the results depend on the processing

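No paired analysis was possible because each population had 1 array. Under 9 other settings, the members' median stayed below that of all genes. It was -1.13 when scaled to the hybridisation controls. That scaling also gave 0 of 47 measured members at least 4-fold higher and 13 at least 4-fold lower in primitive HSC. Of all 9101 genes measured under it, 0.9999% were at least 4-fold higher and 13.5% at least 4-fold lower. The share of all genes at least 4-fold lower was 4.69% in the main setting, so the whole array shifted too. Scaled to the controls, 2 members were at least 2-fold higher and 26 at least 2-fold lower. The matching 2-fold shares of all genes are not given here. Class medians under that scaling were 0.092 (eIF1 family), -2.29 (eIF2), -1.69 (eIF3), -1.13 (eIF4E-binding proteins), -0.55 (eIF5 and eIF6), -0.67 (eEF1) and -0.80 (eEF2 and its kinase). The count at least 4-fold higher was 1 after quantile normalization and lowess (without Eif1b), with the floor raised to percentile 75 and with probe sets summarised by their median (the last 2 without Eif5b), which also gave 2 at least 4-fold lower. Without probe sets ending in _s_at, _x_at, _a_at or _f_at, 3 members were at least 2-fold higher and the eIF1 median was 2.05, from 1 gene. The eIF3 median without those suffixes was -0.0083, with Eif3f, Eif3k and Eif3m left out. The eIF2B median was -1.34 with the floor at percentile 25. Eif4a1 reversed to -2.12 when scaled to the hybridisation controls and to -0.93 both by the median of its probe sets and without those suffixes. Of 396 values of single genes, 336 moved by less than the SD of 0.82 between probe sets of a gene and 60 by more, 43 of them under the hybridisation controls. The 336 include 46 values as deposited, already scaled alike, and 44 from the filter for both arrays, which changes no ratio. Genes with 1 probe set cannot move under the median of probe sets either. The share that stayed is thus no measure of robustness. Dim genes (Eif2b1, Eif2b4) have only bounds.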
